A study of Homo sapiens with 6 samples.

Results

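Ovarian cancer stem cell markers are genes whose products are used to enrich or recognise tumour-initiating cells of the ovary, and 10 of them were taken by symbol: the surface antigens EPCAM, CD44, CD24 and PROM1, the R-spondin receptors LGR5 and LGR4, the transcription factors SOX9, SOX2 and KLF4, and the polycomb gene BMI1. The platform annotation named a probe set for 9 of the 10, each by a single probe set, out of 14884 genes with a symbol. BMI1 carried no symbol there and was not analysed here. The values come from SKOV3, an established human ovarian carcinoma cell line, grown for 11 days in McCoy's 5A medium with 15% serum. In the 3D culture the cells were kept on low-attachment plates with FP001 at 0.015% (w/v), an additive known here by its code name alone (n = 3 arrays), and in the 2D culture on attachment plates, as the control (n = 3 arrays). Plate and additive differed together, so their effects cannot be told apart, and the labels leave unsaid if a group's arrays stem from independent cultures. What the p-values measure is thus the spread between these arrays, which may be technical.

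Cancer stem cell markers fall into surface proteins used for cell sorting and nuclear factors that keep cells undifferentiated. EPCAM, CD44, CD24 and prominin-1 are membrane proteins of epithelial and progenitor cells, and in ovarian cancer they are used in different combinations, since no single antigen defines the stem-like fraction. LGR4 and LGR5 bind R-spondins and thereby keep Wnt receptors at the cell surface, and LGR5 marks stem cells of the mouse ovarian surface epithelium. SOX2 and KLF4 belong to the reprogramming factors, and SOX9 is a regulator of epithelial progenitors.

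All values are log2 RMA values, changes are 3D minus 2D, and a gene was said to have risen or fallen at an adjusted p under 0.05 in a limma fit over all genes. Of the 9 measured markers 5 rose (EPCAM, LGR5, LGR4, CD44 and SOX9), 1 fell (CD24), and KLF4, SOX2 and PROM1 did not pass. Of all genes 5.23% passed as rises and 4.77% as falls, and these shares are also the background for the counts of the gene lists below. The changes ran from -1.21 for CD24 to 1.76 for EPCAM, with a median of 0.53 for the 9 markers against -0.0074 for all genes. EPCAM, LGR5 and CD24 passed with a change of at least 2-fold, as 2.88% of all genes did. The 3D and 2D arrays did not overlap for 7 of the 9 markers, against 29.2% of all genes. The markers were chosen with earlier results of these data known, so they were not tested against all genes. In bulk RNA a different number of cells with a transcript and a different amount of it per cell cannot be told apart.

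**Figure D1:**
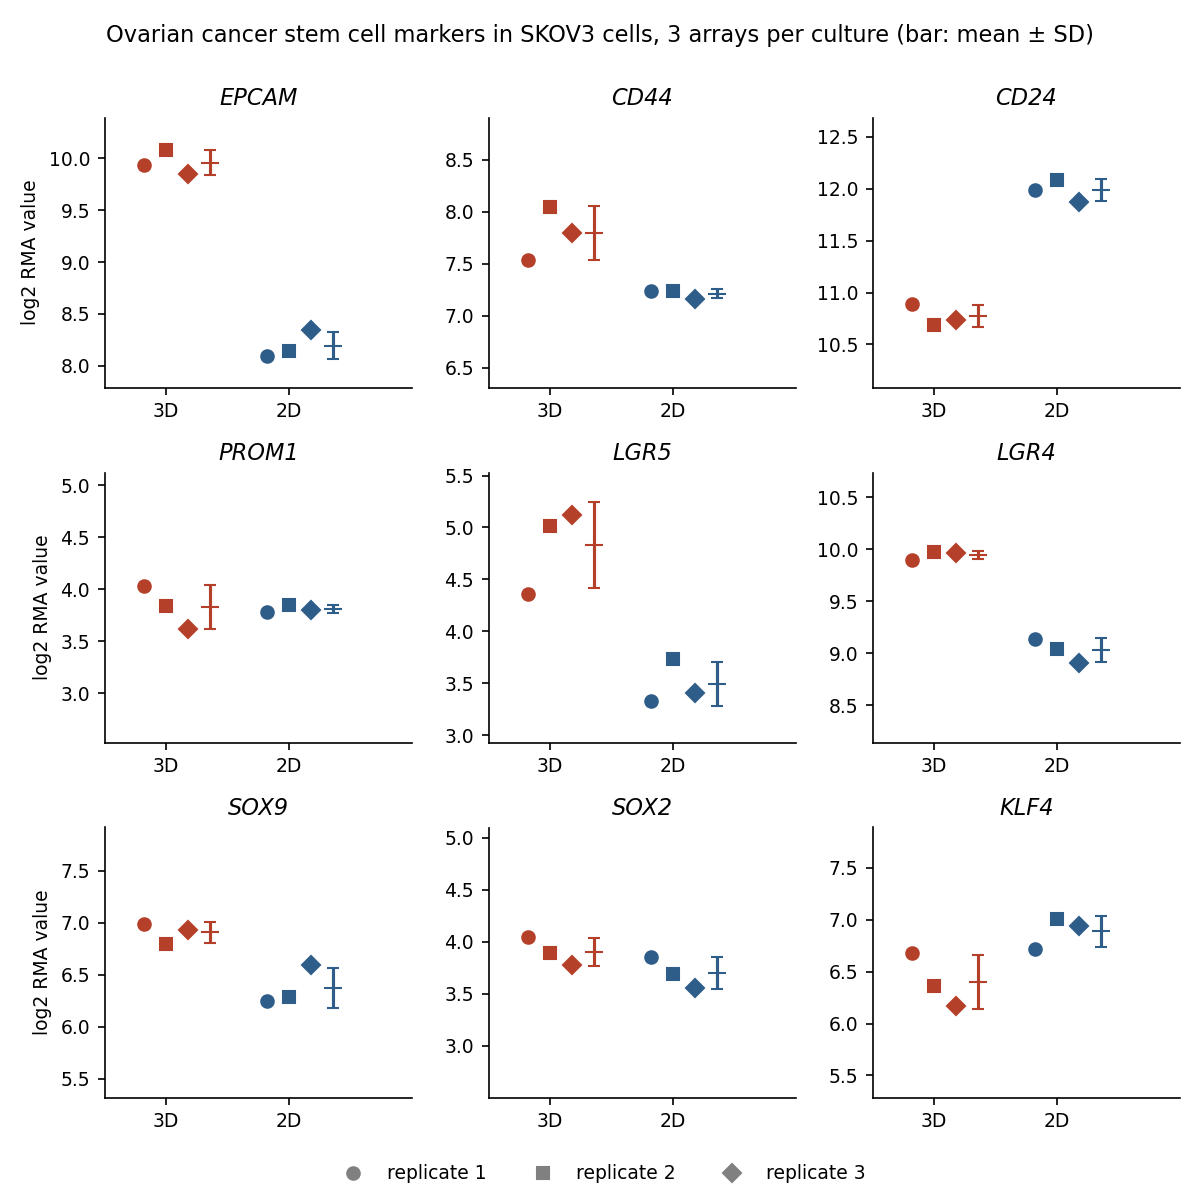
Values of the 9 measured markers on each array (log2 RMA value, each panel spanning the same range), with 3D arrays at left and 2D arrays at right, symbols for replicates and a bar for the mean ± SD (n = 3). EPCAM, CD44, LGR5, LGR4 and SOX9 lie higher on every 3D array, CD24 and KLF4 lie lower, and PROM1 and SOX2 overlap.

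The arrays were alike within groups. Correlations across genes were 0.988 to 0.995 among 3D arrays, 0.991 to 0.993 among 2D arrays and 0.975 to 0.982 between groups. The array that stood apart was 3D replicate 1, which correlated at 0.988 with each of the other 3D arrays, whereas these correlated at 0.995 with each other. For 5 of the 6 markers that passed, 3D replicate 1 lay nearer to the 2D arrays than the mean of the other 3D arrays did, as it did for 67.4% of all genes that passed. Of 8 measured carcinoma markers of 11 listed, 5 lay above the upper quartile of all values in both cultures. Among them was the lineage factor PAX8 at 10.34 ± 0.17 in 3D and 10.18 ± 0.06 in 2D (SD, n = 3). The markers that did not lie above this quartile in both cultures were KRT8 (5.82 in 3D and 5.66 in 2D), KRT7 (5.13 and 6.07) and WT1 (5.20 and 5.25). On the same list the keratin gene KRT19 rose by 2.70, the keratin gene KRT7 fell by 0.93 and the folate receptor gene FOLR1 fell by 0.79, and the other 5 did not pass. FOLR1 kept its call without 2D replicate 3 and lost it without each of the other arrays (adjusted p of 0.0649 to 0.114). Array means of 5 measured leukocyte genes of 11 listed were 5.40 to 5.59 in 3D and 5.01 to 5.23 in 2D, and those of 4 fibroblast and endothelial genes of 11 listed were 3.99 to 4.22 in 3D and 3.74 to 3.80 in 2D. The platelet and endothelial antigen PECAM1 (1.27), lysozyme LYZ (1.83) and the lysosomal protein CD68 (0.68) passed as rises, whereas DCN, KDR, VWF, CD14, CD2 and NKG7 did not pass, and the pan-leukocyte gene PTPRC was not analysed here. The part of these genes in the marker results was not tested.

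EPCAM, a homophilic adhesion molecule of epithelia and the sorting antigen of many carcinoma stem cell protocols, read 9.94, 10.08 and 9.85 in 3D, against 8.10, 8.15 and 8.34 in 2D. The lowest 3D value stood 1.50 above the highest 2D value, so the groups were widely apart. The rise was 1.76 ± 0.11 (SE; 95% interval 1.50 to 2.02), which is 3.38-fold (adjusted p = 0.000159), and 0.74% of all genes had a larger absolute change. Among 6 measured genes of EPCAM partners and proteases of 10 listed, 1 rose and 5 did not pass, with a median change of -0.07. The riser was ST14, encoding the membrane protease matriptase, which can cleave EPCAM, at 6.13 ± 0.27 in 3D and 5.06 ± 0.23 in 2D (SD, n = 3; change 1.07 ± 0.17 SE, adjusted p = 0.00792). CLDN7, the claudin that binds EPCAM, gave -0.39 ± 0.12 (adjusted p = 0.0951), and the sheddase gene ADAM17 gave -0.36 ± 0.12 (adjusted p = 0.101).

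CD44, the main receptor for hyaluronan, read 7.53, 8.05 and 7.80 in 3D, against 7.23, 7.24 and 7.16 in 2D. The 3D values were all higher but spread over 0.26 (SD), against 0.04 in 2D, with 3D replicate 1 the lowest of its group. The rise was 0.58 ± 0.14 (SE; 95% interval 0.26 to 0.90), or 1.50-fold (adjusted p = 0.0373). Without 3D replicate 1 the change was 0.71, and leaving out any other single array ended the call (adjusted p between 0.101 without 2D replicate 1 and 0.121 without 2D replicate 3). A single probe set covers the gene, so the standard and variant splice forms of CD44 were not resolved.

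CD24, a small heavily glycosylated surface protein and a ligand of P-selectin and Siglec-10, read 10.89, 10.68 and 10.74 in 3D, against 11.99, 12.08 and 11.87 in 2D. The groups were separated by 0.98, and both lay near the top of the signal range, at the 98.6th percentile of probe sets in 3D and the 99.5th in 2D. CD24 fell by 1.21 on the log2 scale (SE 0.10; 95% interval -1.45 to -0.97), a level 2.32-fold lower in 3D (adjusted p = 0.000483). Processed copies of CD24 exist elsewhere in the human genome, so its value is uncertain where probes match them too. PROM1, encoding the sorting antigen CD133, read 4.03, 3.84 and 3.61 in 3D, against 3.78, 3.85 and 3.80 in 2D. The 2D values lay within the 3D range, with a change of 0.02 ± 0.12 (SE; 95% interval -0.26 to 0.30, adjusted p = 0.956).

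CD44 and CD24 thus moved in opposite directions, with changes 1.79 log2 units apart. A high CD44 and low CD24 display is the profile used to sort stem-like cells in breast cancer, and both antigens have been used as positive markers in ovarian cancer. That profile is surface protein on single cells, which bulk RNA values do not measure. CD24 also stayed at the 98.6th percentile of probe sets in 3D, so it was lower there but not low. With each gene set relative to its own mean over the 6 arrays, CD44 minus CD24 was 0.52, 1.24 and 0.93 in 3D, against -0.88, -0.97 and -0.83 in 2D. Every 3D array had to be above every 2D array, since CD44 was higher and CD24 lower on every 3D array. Of the 3D arrays, replicate 1 was the lowest. This difference is a description of 2 markers already tested singly, and it was given no test of its own.

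**Figure D2:**
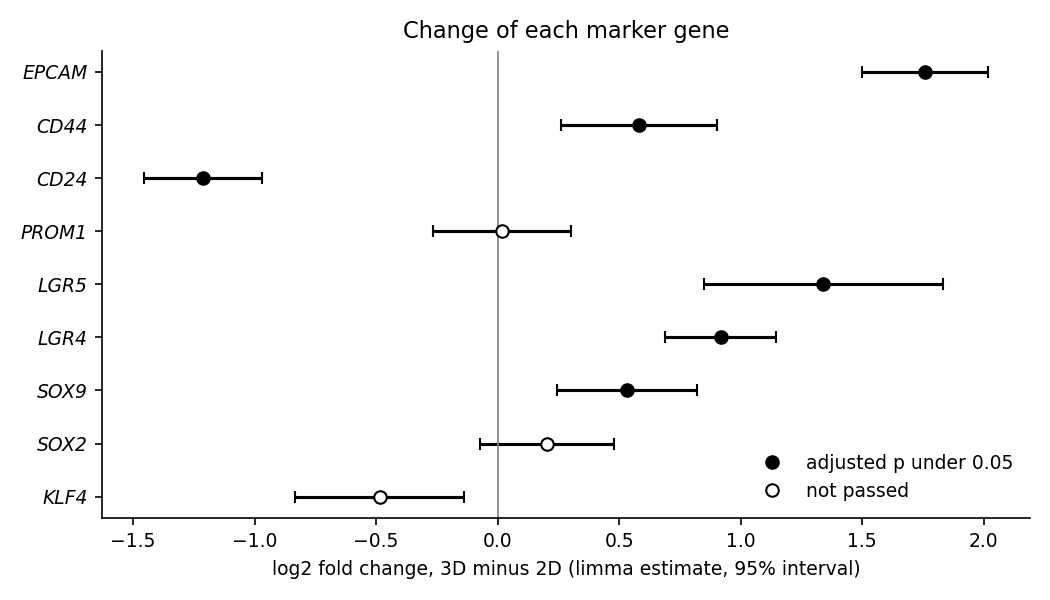
Log2 fold change, 3D minus 2D, of each measured marker with its 95% interval from limma (n = 3 arrays per group), filled where the adjusted p was under 0.05. EPCAM (1.76) and LGR5 (1.34) lie furthest to the right and CD24 (-1.21) furthest to the left, and the intervals of PROM1 and SOX2 include 0.

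The promoters of the antigens that moved apart are shown because the binding letters of factors among the markers and their partners can be read in them. They run from 250 bases before to 50 bases after an annotated start and come from RefSeq (GRCh38.p14), 5′ to 3′ on the gene's strand. The table held windows for 6 of the 9 measured markers. Capitals mark 4 short motifs on both strands: the TCF/LEF core CTTTG, the SOX core ACAAT, the KLF core CACCC and the GC box GGGCGG.
CD44, chr11:35138921-35139220, plus strand: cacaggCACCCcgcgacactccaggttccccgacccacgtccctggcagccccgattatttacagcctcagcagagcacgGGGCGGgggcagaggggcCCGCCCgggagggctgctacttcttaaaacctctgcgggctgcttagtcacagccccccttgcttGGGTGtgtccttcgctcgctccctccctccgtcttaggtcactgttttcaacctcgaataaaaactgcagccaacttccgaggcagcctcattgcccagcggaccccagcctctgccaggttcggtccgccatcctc
CD24, chr6:106975578-106975877, minus strand: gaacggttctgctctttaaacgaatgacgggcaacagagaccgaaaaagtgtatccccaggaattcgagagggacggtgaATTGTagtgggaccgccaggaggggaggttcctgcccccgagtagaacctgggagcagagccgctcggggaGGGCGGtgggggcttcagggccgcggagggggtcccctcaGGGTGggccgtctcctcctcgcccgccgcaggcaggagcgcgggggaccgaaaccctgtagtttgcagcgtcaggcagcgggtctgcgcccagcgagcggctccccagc
The CD44 window held 2 KLF cores and 2 GC boxes. The CD24 window, the first of 3 listed for that gene, held 1 SOX core, 1 KLF core and 1 GC box. Of its windows not shown, window 2 held 1 TCF/LEF core and 1 KLF core. Window 3 held 1 TCF/LEF core, 2 KLF cores and 1 GC box, and a SOX core was in neither. In the CD44 and CD24 windows shown, marked motifs did not overlap. Of all 35116 windows of this length in the table, 47.5% held the TCF/LEF core, 27.4% the SOX core, 59.9% the KLF core and 45.0% the GC box, so such letters are common and a match is no sign of binding.

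Around CD44, 14 of 18 listed genes for its ligands, cytoskeletal linkers and splicing were measured, of which 3 rose, 3 fell and 8 did not pass (median 0.04). The splicing regulators ESRP1 and ESRP2, which favour the epithelial variant forms of CD44, rose by 1.54 ± 0.28 and 1.16 ± 0.16 (SE). ESRP2 read 6.77, 7.39 and 7.21 in 3D and 5.96, 5.94 and 6.01 in 2D. SRGN, encoding the proteoglycan serglycin, a CD44 ligand, read 5.52, 5.10 and 5.30 in 3D and 9.51, 9.52 and 9.51 in 2D, and fell by 4.20 on the log2 scale (SE 0.12). The hyaluronan synthase gene HAS2 fell by 1.18 (SE 0.16), with 3.71, 3.74 and 3.46 in 3D and 5.10, 4.55 and 4.80 in 2D. The genes of the linkers that tie CD44 to actin did not pass, with changes of -0.03 for ezrin (EZR), -0.07 for moesin (MSN) and 0.12 for radixin (RDX). Leaving out 3D replicate 3 or 2D replicate 2 ended the call of ESRP1 (adjusted p = 0.0526 and 0.0539).

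LGR5 and LGR4 both rose. LGR5 read 4.36, 5.01 and 5.12 in 3D, against 3.33, 3.73 and 3.41 in 2D. The groups were 0.63 apart, and 3D replicate 1 lay 0.71 below the mean of the other 3D arrays. The rise was 1.34 ± 0.21 (SE; 95% interval 0.85 to 1.83), or 2.53-fold (adjusted p = 0.00739), and without 3D replicate 1 it was 1.58. The 2D mean of LGR5 lay at the 34.6th percentile of all probe sets, in the range where RMA compresses fold changes.

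LGR4 read 9.90, 9.97 and 9.97 in 3D, against 9.14, 9.04 and 8.91 in 2D. Its 3D arrays were the most alike of any marker here (SD 0.04), and all of them lay at least 0.76 above the 2D arrays. The rise was 0.92 ± 0.10 (SE; 95% interval 0.69 to 1.15), or 1.89-fold (adjusted p = 0.00118), and it passed without any single array. The promoter window of LGR4 is shown as that of a risen marker that held none of the 4 motifs.
LGR4, chr11:27472741-27473040, minus strand: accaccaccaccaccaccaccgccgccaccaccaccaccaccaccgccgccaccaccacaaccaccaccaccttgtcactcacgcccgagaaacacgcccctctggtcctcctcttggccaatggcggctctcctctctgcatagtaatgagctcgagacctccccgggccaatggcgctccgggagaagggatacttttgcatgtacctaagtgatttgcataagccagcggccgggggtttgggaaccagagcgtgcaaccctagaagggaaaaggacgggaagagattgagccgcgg
The LGR5 and LGR4 intervals overlap, and whether their changes differ was not tested. LGR6, the third receptor of the family, gave 0.12 ± 0.16 (SE, adjusted p = 0.74), with 5.25, 5.06 and 4.85 in 3D and 5.23, 4.86 and 4.71 in 2D.

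Of 26 listed genes of R-spondins, Wnt receptors and their targets in LGR5-positive cells, 25 were measured, of which 4 rose, 1 fell and 20 did not pass (median 0.14). The Wnt receptor gene FZD1 read 8.58, 8.75 and 8.71 in 3D and 6.91, 7.16 and 6.77 in 2D, a rise of 1.73 ± 0.12 (SE, adjusted p = 0.00025). The Wnt feedback gene AXIN2 rose by 1.26 ± 0.19 and OLFM4, a secreted glycoprotein of intestinal crypt cells, by 0.97 ± 0.16. FZD2, encoding another Frizzled receptor, went the other way, with a change of -0.96 ± 0.20 (SE, adjusted p = 0.0253). Its call held without 2D replicate 3 and ended without each of the other arrays (adjusted p up to 0.0864, without 2D replicate 2). On the same list NKD1 (0.28, adjusted p = 0.18), NOTUM (0.11, adjusted p = 0.696) and ASCL2 (-0.10, adjusted p = 0.634) did not pass. The ligand genes RSPO1, RSPO2, RSPO3 and RSPO4 did not pass, with changes between -0.10 and 0.07. Neither did the ubiquitin ligases that R-spondins hold in check, ZNRF3 at 0.06 ± 0.09 and RNF43 at 0.45 ± 0.17 (SE, adjusted p = 0.156), although every 3D value of RNF43 (4.89, 5.18 and 5.26) exceeded every 2D value (4.32, 4.86 and 4.80).

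SOX9, an HMG-box factor of epithelial progenitors, read 6.99, 6.80 and 6.93 in 3D, against 6.24, 6.28 and 6.60 in 2D. The groups were 0.20 apart, and 2D replicate 3 came closest to the 3D arrays. The rise was 0.53 ± 0.12 (SE; 95% interval 0.25 to 0.82), or 1.45-fold (adjusted p = 0.0347). Leaving out any single array except 2D replicate 3 ended the call (adjusted p between 0.0626 without 3D replicate 1 and 0.121 without 2D replicate 2), as did a repeated quantile normalization (adjusted p = 0.0509).

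SOX2, the pluripotency factor of the same family, read 4.05, 3.89 and 3.78 in 3D, against 3.86, 3.69 and 3.55 in 2D. The groups overlapped, and both lay below the array medians. The change was 0.20 ± 0.12 (SE; 95% interval -0.07 to 0.48, adjusted p = 0.365). SOX2 lies within the transcribed region of SOX2-OT, so reads of that overlapping RNA by its probes cannot be separated here. Of 15 other SOX genes, all measured, 2 rose, 1 fell and 12 did not pass (median 0.08). SOX17, an endoderm and Müllerian lineage factor, read 8.29, 8.77 and 8.62 in 3D and 6.88, 7.09 and 6.81 in 2D, a rise of 1.63 ± 0.15 (SE, adjusted p = 0.000551). SOX13 rose by 0.92 ± 0.12, and SOX12 fell by 0.63 (SE 0.11), a call that ended without 3D replicate 3 (adjusted p = 0.0535).

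KLF4, a zinc finger factor of epithelial differentiation and a reprogramming factor, read 6.68, 6.36 and 6.17 in 3D, against 6.72, 7.01 and 6.94 in 2D. Every 3D value was lower, but 3D replicate 1 lay only 0.04 below the lowest 2D value. The change was -0.49 ± 0.15 (SE; 95% interval -0.84 to -0.14), 1.40-fold, and did not pass (adjusted p = 0.0922). Without 3D replicate 1 it was -0.62 and passed (adjusted p = 0.0239). Of 16 other KLF genes, all measured, 2 rose, 1 fell and 13 did not pass (median -0.16). KLF7 read 7.38, 7.56 and 7.61 in 3D and 9.18, 9.06 and 9.22 in 2D and fell by 1.64 on the log2 scale (SE 0.10). KLF5, a factor of proliferating crypt epithelium, rose by 0.59 ± 0.14 (SE, adjusted p = 0.0395), and KLF8 rose by 0.46 ± 0.12 (adjusted p = 0.0459). Of the fits without an array, KLF5 passed only without 3D replicate 1 (adjusted p up to 0.14, without 3D replicate 2), and KLF8 only without 2D replicate 3 (adjusted p up to 0.15, without 2D replicate 2). For 7 of the 16 KLF genes all 3D arrays lay below all 2D arrays, against 15.3% of all genes, although KLF7 alone among these 7 passed.

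BMI1 is a subunit of polycomb repressive complex 1, and the genes of its partners could be read although BMI1 itself could not. Of 21 listed polycomb genes 16 were measured, of which 0 rose, 2 fell and 14 did not pass in the limma fit (median -0.09). That is 12.5% past the threshold, where 5.23% of all genes passed as rises and 4.77% as falls. An unadjusted p under 0.05 was found in this fit for 5 of the 16, and for 23.5% of all genes. RYBP, a subunit of variant complexes, read 8.21 ± 0.10 in 3D and 8.70 ± 0.10 in 2D (SD, n = 3), a change of -0.48 ± 0.10 (SE, adjusted p = 0.0254). PCGF5, a paralog of BMI1, gave -0.48 ± 0.10 (adjusted p = 0.0252). RYBP passed without 3D replicate 1 and in no other fit with an array left out (adjusted p up to 0.106, without 3D replicate 2). The call of PCGF5 ended without 3D replicate 3 (adjusted p = 0.0943) and without each of the 2D arrays (0.0539 to 0.0861).

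Other genes used as stem cell markers gave a mixed picture. Of 23 listed 16 were measured, of which 3 rose, 2 fell and 11 did not pass (median 0.27). ENG, encoding the TGF-beta co-receptor endoglin, read 7.92, 7.16 and 7.05 in 3D and 5.53, 5.58 and 5.81 in 2D, a rise of 1.74 ± 0.22 (SE, adjusted p = 0.00298). The kinase gene DCLK1, a marker of tuft cells, rose by 0.93 ± 0.13, with 7.94, 8.28 and 8.35 in 3D and 7.15, 7.35 and 7.28 in 2D. The transcription factor gene MYC fell by 0.97 (SE 0.13), and MSI1, encoding the RNA-binding protein Musashi, gave -0.63 ± 0.12 (adjusted p = 0.0192). The call of MSI1 ended without 3D replicate 2 or 3 or 2D replicate 2 or 3 (adjusted p up to 0.0793). The pluripotency genes did not pass, with changes of -0.0057 ± 0.25 for NANOG and 0.28 ± 0.20 for POU5F1 (SE). KIT, the stem cell factor receptor, read 8.37, 8.27 and 8.36 in 3D and 8.03, 8.28 and 7.24 in 2D, with overlapping groups (adjusted p = 0.293).

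**Figure D3:**
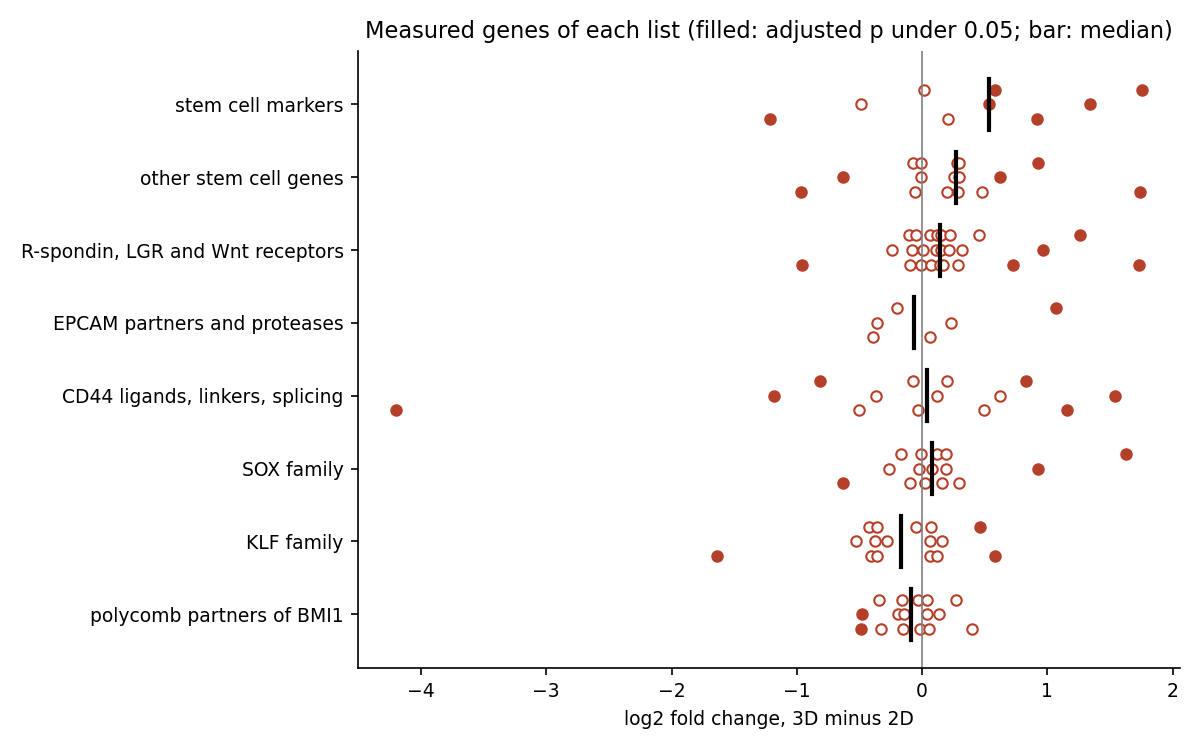
Log2 fold change, 3D minus 2D, of every measured gene in the marker list and 7 related lists, filled where the adjusted p was under 0.05, with a bar at the list median. The marker list has its median at 0.53 and 6 filled of 9, and over the 7 related lists 25 of 108 genes are filled, with SRGN at -4.20 as the far left point. Among all 14884 genes 1488 passed.

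Across these 7 related lists 25 of 108 measured genes passed (23.1%), 15 as rises and 10 as falls, with a median change of 0.06. Among all genes 5.23% passed as rises and 4.77% as falls. By list the share that passed ran from 12.5% for the polycomb genes to 42.9% for the genes around CD44. With a trended robust variance 15 genes of the related lists rose and 16 fell, and with the replicate number as a block 13 rose and 5 fell. The marker list was not tested against the related lists, nor were these tested against all genes. Markers and lists were chosen with earlier results of these data known.

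**Figure D4:**
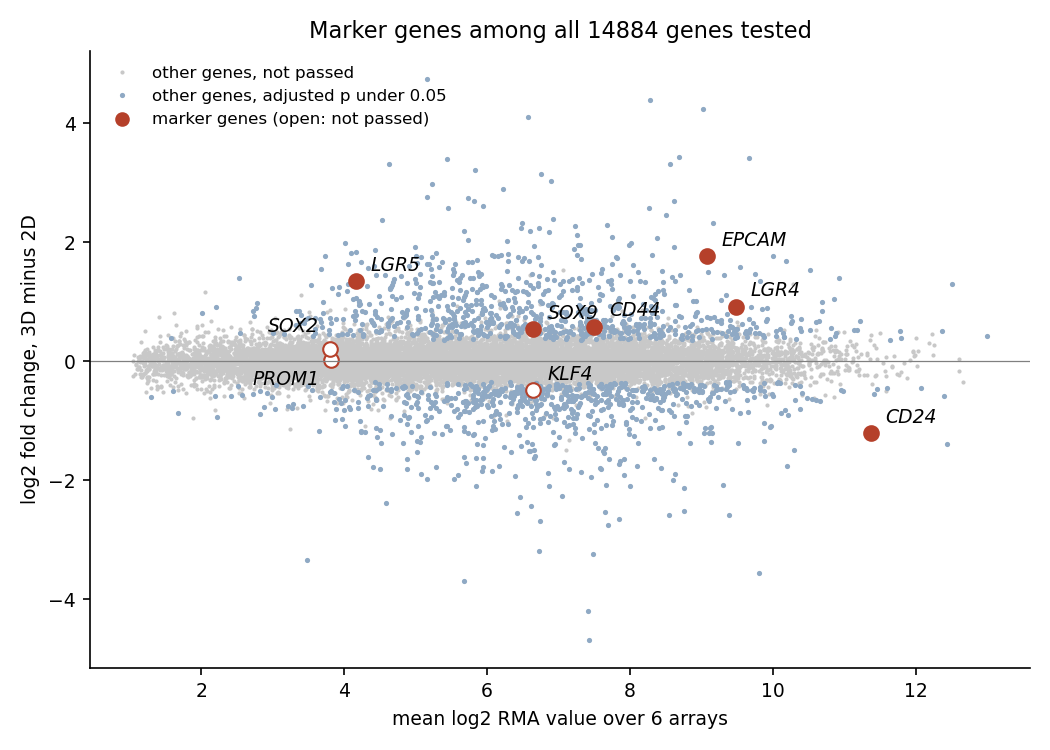
Log2 fold change, 3D minus 2D, against the mean log2 RMA value over the 6 arrays for all 14884 genes, with the 9 measured markers as large circles, open where the adjusted p was not under 0.05. EPCAM, LGR5, LGR4 and CD24 stand clear of the grey band, CD44 and SOX9 lie at its edge, and KLF4, SOX2 and PROM1 lie within the range of genes that did not pass.

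Genes with the nearest array profile were found for each marker that passed, by the root-mean-square difference over the 6 arrays after each gene was set relative to its own mean. For CD24 the nearest was CRIM1, encoding a transmembrane protein that binds bone morphogenetic proteins, at 0.035 log2 units, then MB21D2 (0.045) and the divergent transcript CRIM1-DT (0.062). CRIM1 gave 8.50 ± 0.12 in 3D and 9.71 ± 0.06 in 2D (SD, n = 3), a change of -1.21 beside the -1.21 of CD24. For EPCAM the nearest were the actin-capping gene TMOD1 (0.083), the carbonic anhydrase gene CA12 (0.11) and the tensin gene TNS4 (0.13), with changes of 1.76, 1.69 and 1.79.

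For LGR5 they were the ETS factor gene ELF5 (0.095), TMEM238 (0.098) and the Hedgehog co-receptor gene BOC (0.11), and for LGR4 the aspartyl protease gene BACE2 (0.050), PDLIM5 (0.051) and the mitochondrial gene ETFDH (0.063). Like LGR5, ELF5 was lowest among the 3D arrays in replicate 1 (5.15, against 5.54 and 5.87 in replicates 2 and 3). For CD44 the nearest were FRMD4B (0.059), FBXO16 (0.063) and the keratin gene KRT15 (0.069), and for SOX9 they were HMCN1 (0.053), C15orf62 (0.058) and KLF8 (0.067). The profiles rest on 2 groups of 3 arrays, and how many other genes come about as close was not counted. Nearness here is a likeness of values and nothing more. These genes were picked by their profiles, so their like changes and the low replicate 1 of ELF5 are part of that choice.

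**Figure D5:**
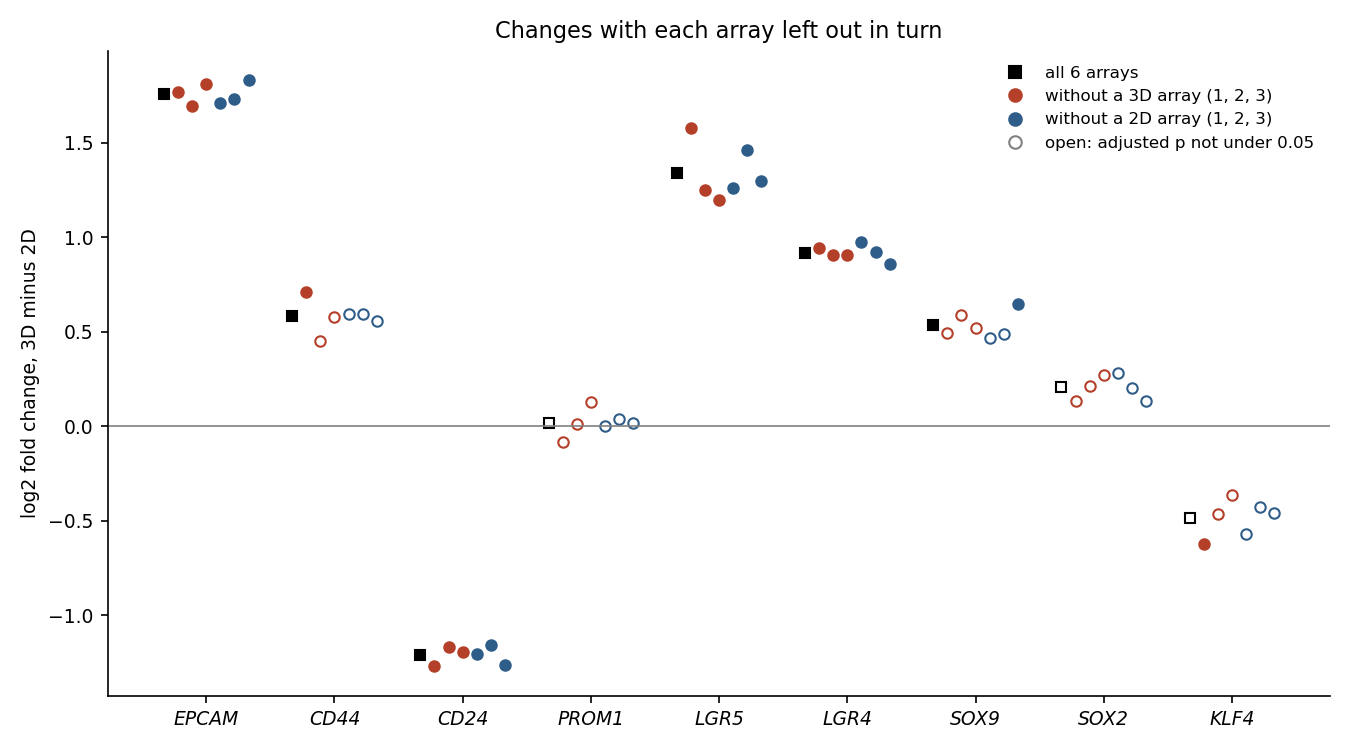
Log2 fold change, 3D minus 2D, of each marker with all 6 arrays (square) and with each array left out in turn (circles, 3D arrays 1 to 3 then 2D arrays 1 to 3), open where the adjusted p was not under 0.05. EPCAM, CD24, LGR5 and LGR4 stay filled throughout, CD44 and SOX9 turn open in 5 of 6 fits each, and KLF4 is filled without 3D replicate 1 alone.

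EPCAM, CD24, LGR5 and LGR4 passed without any single array, with adjusted p of up to 0.00203, 0.00441, 0.0387 and 0.00876. The changes of CD44 and SOX9 kept their sign in each of these fits, but CD44 was called only without 3D replicate 1 and SOX9 only without 2D replicate 3. The number of markers past the threshold was 4 to 6 over the fits that left out an array. Without 3D replicate 1, the array that stood apart, 4 markers rose and 2 fell: SOX9 lost its call (0.49) and KLF4 gained one, while EPCAM gave 1.77, LGR4 0.94 and CD24 -1.27. In the same fit 13 genes of the related lists rose and 10 fell.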

How the data were processed

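Each of the 6 arrays measured total RNA from SKOV3 cells (100 ng per labelling). The authors deposited log2 RMA values of 53617 probe sets, per the submitters' processing notes, with the version, probe grouping and filters not given in the sources used here. That the scale is log2 was read from the range of 0.30 to 13.87. RMA equalises arrays and compresses fold changes of dim probe sets, and the table holds no detection calls. The labels name a 3′ IVT labelling kit, but the annotation is that of a Human Gene ST design, a mismatch not settled here.

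The annotation named 16098 probe sets with 1 symbol, 0 with several and 37519 with none, and all 16098 gene IDs were found in RefSeq (GRCh38.p14), used for current symbols. The probe set with the highest mean represented each of 14884 genes. limma 3.58.1 in R 4.3.3 fitted group alone, with two-sided tests and Benjamini-Hochberg adjustment over all genes. On simulated data for 14884 genes, 14684 of them unchanged, it recovered 28.4% of 1.5-fold, 76.1% of 2-fold and 98.5% of 4-fold changes. In the measured data 1488 genes passed. The adjusted threshold depends on the share of changed genes, so recovery there may differ. The number of arrays limits the precision.

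Markers and lists were chosen with earlier results of these data known. Named were all markers, up to 4 members past the threshold per related list with the largest change, and the 3 nearest profiles per marker that passed; list genes named without passing were picked for their role after their values were seen. Alternatives were other normalizations, probe set rules, variance models, a replicate block and leaving out each array. Same-numbered arrays did not deviate together (correlations -0.28, -0.06 and -0.18), so the block is an alternative.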

Additional observations from a re-analysis of the deposited data

How the results depend on the processing

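EPCAM, CD24, LGR5 and LGR4 kept direction and call under all 14 alternatives, with changes of 1.70 to 1.83, -1.27 to -1.16, 1.19 to 1.58 and 0.86 to 0.97. SOX2 did not pass under any. The replicate number as a block left 760 genes changed, against 1488 without it, and 4 markers. Under the replicate block CD44 (0.58, adjusted p = 0.0883) and SOX9 (0.53, adjusted p = 0.088) were not called, no other marker's call changed, and the numbers do not show that arrays are paired. Testing all probe sets together gave 14 related genes in place of 25, and neither CD44 (0.58, adjusted p = 0.131) nor SOX9 (0.53, adjusted p = 0.126) passed, with more features adjusted over. A repeated quantile normalization gave SOX9 0.52 (adjusted p = 0.0509). Leaving out single arrays gave 775 (without 3D replicate 3) to 1899 (without 3D replicate 1) changed genes, 15 to 23 related genes, 4 to 6 markers, and changes of 0.45 to 0.71 for CD44, 0.47 to 0.65 for SOX9 and -0.62 to -0.37 for KLF4. KLF4 passed without 3D replicate 1 (-0.62, adjusted p = 0.0239). PROM1 ranged from -0.084 to 0.13, with the sign turned without 3D replicate 1 (-0.084). Fewer arrays were fitted in each of these, and the cause of the other shifts was not tested. PROM1 and SOX2 in both cultures, and LGR5 in 2D alone, lay low in the signal range, where small changes are hardest to see. The 3D mean of LGR5 lay at the 58.9th percentile of all probe sets.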
